A study of Gallus gallus with 2 samples.

Results

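Splicing of 4 genes of actin filament assembly, ABI1, ABI2, DIAPH1 and PFN2, was examined in SRSF10-deficient and wild-type chicken cells. Every row under these names in the deposited table of splicing events was taken, which gave 14 events of the 10319 listed: 5 in ABI1, 6 in ABI2, 2 in DIAPH1 and 1 in PFN2. The cells were DT40, a B-lymphoblast line from the chicken bursa, and were either SRSF10-/- or wild type (WT). SRSF10 belongs to the serine/arginine-rich proteins, which bind RNA and steer splice site choice. Poly(A) RNA was sequenced in 1 library per genotype, so there are no replicates, and a p-value sets 2 libraries against each other rather than 2 genotypes. How many clones stood behind the deficient line is not given in the sources used here.

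Actin filaments grow either as branched networks or as straight filaments. ABI1 and ABI2 are paralogous adaptor proteins of the WAVE regulatory complex, which passes signals from the GTPase Rac to the Arp2/3 complex, the nucleator of branches. Both carry a proline-rich stretch and a C-terminal SH3 domain that bind partner proteins. DIAPH1 is a listed name of the diaphanous formins, which nucleate and elongate straight filaments. PFN2 encodes a profilin, a protein that binds actin monomers and hands them to formins and related elongation factors. In lymphocytes, such genes serve cell spreading, migration and the contact with antigen-presenting surfaces.

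Listed reads summed to 2022414 in the SRSF10-deficient library and 2047679 in the WT library, and the 14 events drew on 78 to 1086 and 91 to 1149 reads. For SRSF10 itself 0 rows were listed, which leaves the genotype label unchecked by its own gene. Of 14 B-lymphocyte markers, 10 had listed events, with 9559 reads in the SRSF10-deficient and 8782 reads in the WT library. Of the 7 T-lymphocyte markers, CD3D and CD8A were listed, together with 867 reads in the SRSF10-deficient and 149 reads in the WT library. Of 5 genes taken as fibroblast markers only VIM was listed, with 152 reads in the SRSF10-deficient and 1036 reads in the WT library. Of 4 erythroid markers 0 were listed. These are reads on splicing events and not expression levels, and their part in the results below was not tested.

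The comparison of SRSF10-deficient with WT cells asked which events were spliced differently without SRSF10. One event in each of the 4 genes changed, and each of the 4 had lower listed inclusion in the SRSF10-deficient library. They were an exon of 33 nt in DIAPH1, an exon of 87 nt in ABI2, an exon of 177 nt in ABI1 and a 3′ splice site choice in PFN2. The inclusion level is the share of inclusion reads among the inclusion and exclusion reads of an event. A change was called where Fisher's exact test on the reads, Benjamini-Hochberg adjusted over the 6089 events that had 20 or more reads per library, gave a value under 0.05 and inclusion differed by 10 or more percentage points. Under this rule 4.7% of all tested events changed, beside 4 of 14 here. The 4 genes were chosen with earlier results of these data known, so the shares in this paragraph describe them and do not measure enrichment. Lower listed inclusion was called in 2.22% of all events and in the same 4 here, or in the 3 cassette exons alone if the PFN2 site is left out, since the table does not say which of its sites counts as inclusion. Of all tested cassette exons, 6.07% changed and 2.9% changed with lower inclusion, beside 3 of 8 here. Calls were more frequent among deeply read exons, at 9.45% of those with 150 or more reads per library. Of the 3 changed cassette exons here, those of ABI1 and ABI2 reached that depth. The DIAPH1 exon, at 78 and 91 reads, did not. In the other 10 events, the difference stayed under 10 points.

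**Figure D1:**
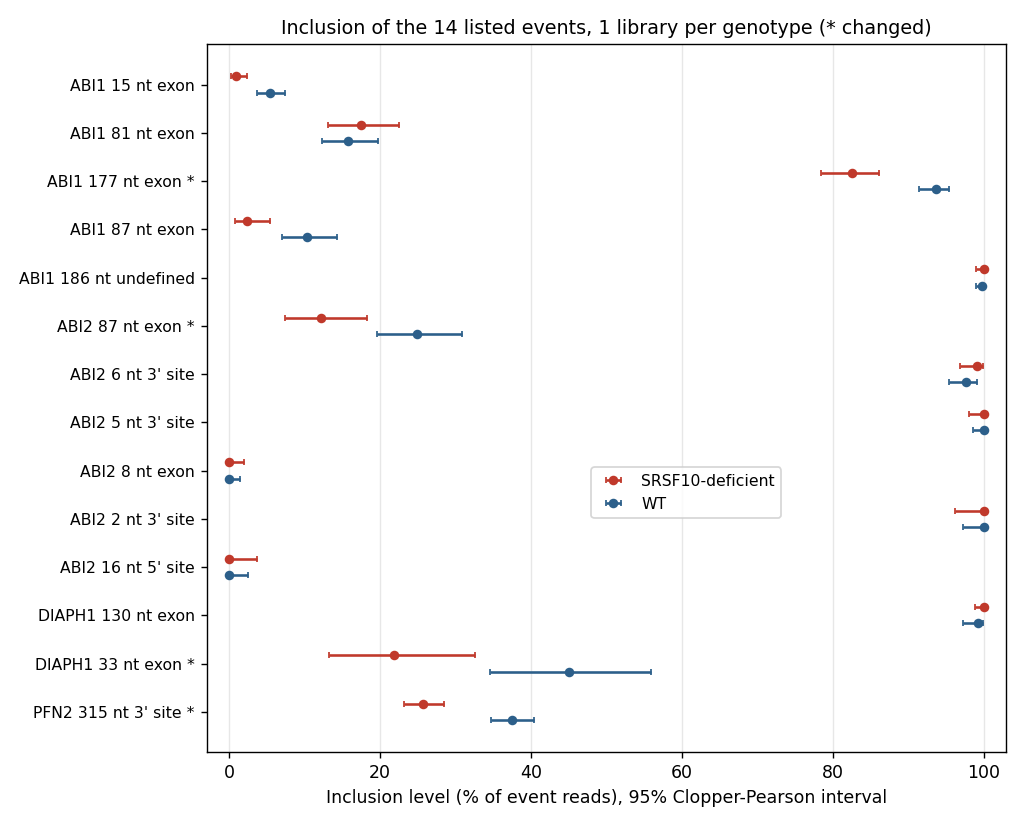
Inclusion level (x axis, percent of the event's reads) of each of the 14 listed events (rows), with 95% Clopper-Pearson intervals that cover counting error only; red points are the SRSF10-deficient library, drawn above the blue points of the WT library, and an asterisk marks the 4 changed events. The widest gap is that of the DIAPH1 exon of 33 nt, at 21.8% against 45.1%, and 7 events lie at or near 0% or 100% in both libraries (4 of them with no read for the other form).

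In DIAPH1, a cassette exon, that is an exon kept or skipped as a whole, of 33 nt (galGal4 chromosome 4, 5922036 to 5922068) was included in 17 of 78 reads in the SRSF10-deficient library and in 41 of 91 reads in the WT library. Inclusion was thus 21.8% (95% Clopper-Pearson interval 13.2 to 32.6) in deficient cells and 45.1% (34.6 to 55.8) in WT cells, and the intervals did not overlap. The difference was -23.3 points (Newcombe 95% interval -36.1 to -8.98), with a Fisher's exact adjusted p of 0.0357. This was the widest difference among the 14 events as counted, and the one that rests on the fewest reads. Levels here are raw shares of reads, and an included cassette exon may be counted at 2 junctions where a skipped one has 1. With the inclusion reads of cassette exons halved for this reason, the difference was -17.0 points, beside -17.9 points for the ABI1 exon of 177 nt. The DIAPH1 exon then stood at 11.6% in the SRSF10-deficient and 28.6% in the WT library and lost its call (Fisher's exact adjusted p = 0.225). The authors' deposited table lists 0.00648 as its adjusted p, the only 1 of the 14 under 0.05, beside 1.67% of all listed events. Skipping the exon removes 11 codons and keeps the reading frame, if the whole exon is coding.

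Among 840 cassette exons of other genes with reads between 0.5 and 2 times those of the DIAPH1 exon in each library, 3.57% differed by at least as many points in either direction. The share was 8.29% (30 of 362) among those with a mean level of 10 to 90%, which have room to move either way. Fisher's exact test counts reads only. Over the cassette exons with each expected count at 5 or more, the median chi-square was 3.97 times that expected from counting noise. This factor comes from the same comparison of 2 libraries, so it cannot tell spread between libraries apart from an effect of genotype on splicing. With each chi-square divided by this factor, the DIAPH1 exon lost its call (adjusted p = 1; 0.663 by Fisher's exact test with its reads divided by 2), and 0.552% of all cassette exons kept theirs.

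The other exon listed under DIAPH1, of 130 nt (chromosome 4, 5854697 to 5854826), was included in 333 of 333 reads in the SRSF10-deficient library and in 263 of 265 reads in the WT library. It was close to constitutive in both libraries, at 100% (98.9 to 100) and 99.2% (97.3 to 99.9). The 0 exclusion reads in deficient cells allow skipping of up to 0.901%, taken as the share that 3 reads would make. This limit is narrower than the Clopper-Pearson interval. Its length is not a multiple of 3. In the gene table of the GRCg7b assembly, DIAPH1 is a synonym of DIAPH2 on chromosome 4, the chromosome of both rows, so the rows may describe the gene now named DIAPH2. A related formin, DIAPH3, also had a listed cassette exon of 33 nt, a length shared by 20 of 3211 listed cassette exons. It was included in 18 of 20 reads in the SRSF10-deficient library and 15 of 16 reads in the WT library, which is too few reads for the test.

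In ABI2, a cassette exon of 87 nt (chromosome 7, 13104664 to 13104750) was included in 19 of 157 reads in the SRSF10-deficient library and in 61 of 245 reads in the WT library. The levels were 12.1% (7.45 to 18.3) in deficient cells and 24.9% (19.6 to 30.8) in WT cells. The exon was a minority form in both libraries, and less frequent in the deficient one. The difference was -12.8 points (-19.9 to -4.97), with a Fisher's exact adjusted p of 0.0364. Of 520 cassette exons of other genes at like depth, 8.08% differed by as many points, and of the 210 among them with a mean level of 10 to 90%, 19.0% did. The call was lost with the division by the spread above counting noise (adjusted p = 1) and by Fisher's exact test with reads divided by 2 (adjusted p = 0.743), and the authors' deposited table gives an adjusted p of 0.0560.

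In ABI1, a cassette exon of 177 nt (chromosome 2, 15966504 to 15966680) was included in 326 of 395 reads in the SRSF10-deficient library and in 578 of 617 reads in the WT library. Inclusion was 82.5% (78.4 to 86.1) in deficient cells and 93.7% (91.5 to 95.5) in WT cells. The skipped form, which lacks 59 codons if the exon is coding throughout, made up 17.5% of reads in deficient cells and 6.32% in WT cells. The difference in inclusion was -11.1 points (-15.5 to -7.07), with a Fisher's exact adjusted p of 2.78e-06. At like depth, 24 of 248 cassette exons of other genes (9.68%) differed by as many points, and all 24 were among the 101 with a mean level of 10 to 90% (23.8%). With the division by spread the call was lost (adjusted p = 0.280), and the authors' deposited table gives an adjusted p of 0.116.

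A pair of other ABI1 exons were rare in WT cells and rarer still among the reads of deficient cells, but differed by less than 10 points and so did not meet the rule. The ABI1 exon of 87 nt (chromosome 2, 15969472 to 15969558) was included in 5 of 215 reads in the SRSF10-deficient library and in 30 of 293 reads in the WT library, which is 2.33% (0.759 to 5.34) and 10.2% (7.02 to 14.3). Its difference was -7.91 points (-12.1 to -3.69; Fisher's exact adjusted p = 0.00816). The ABI1 exon of 15 nt (chromosome 2, 15957523 to 15957537) was included in 4 of 429 reads in the SRSF10-deficient library and in 33 of 619 reads in the WT library, which is 0.932% (0.255 to 2.37) and 5.33% (3.70 to 7.41). Its difference was -4.40 points (-6.54 to -2.31; Fisher's exact adjusted p = 0.00203). At an adjusted p under 0.05 and any difference, 7.77% of all cassette exons passed. Both exons had an adjusted p of 1 with the division by spread. Neither had an authors' adjusted p under 0.05 (0.151 for the exon of 87 nt). With reads divided by 2, Fisher's exact adjusted p was 0.280 for the exon of 87 nt and 0.321 for that of 15 nt. With cassette inclusion reads halved it was 0.152 and 0.115. At like depth, 14.6% of 486 cassette exons of other genes differed by as many points as the exon of 87 nt. For the exon of 15 nt the share was 26.2% of 256.

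The ABI1 exon of 81 nt (chromosome 2, 15964775 to 15964855) had overlapping levels instead. It was included in 47 of 270 reads in the SRSF10-deficient library and in 62 of 395 reads in the WT library, at 17.4% (13.1 to 22.5) and 15.7% (12.3 to 19.7). The difference was 1.71 points (-3.93 to 7.65; Fisher's exact adjusted p = 1). It lies between the exons of 15 nt and 177 nt, 7237 and 1648 nt away. The last ABI1 event, of 186 nt and no defined type (chromosome 2, 15973511 to 15973696), had inclusion reads almost alone, 372 of 372 in the SRSF10-deficient library and 517 of 518 in the WT library.

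All 4 cassette exons of ABI1, the ABI2 exon of 87 nt and the DIAPH1 exon of 33 nt have lengths divisible by 3. That is 6 of the 8 cassette exons of these genes (75%), beside 56.9% of all listed cassette exons. The remaining pair are the DIAPH1 exon of 130 nt and an ABI2 exon of 8 nt.

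**Figure D2:**
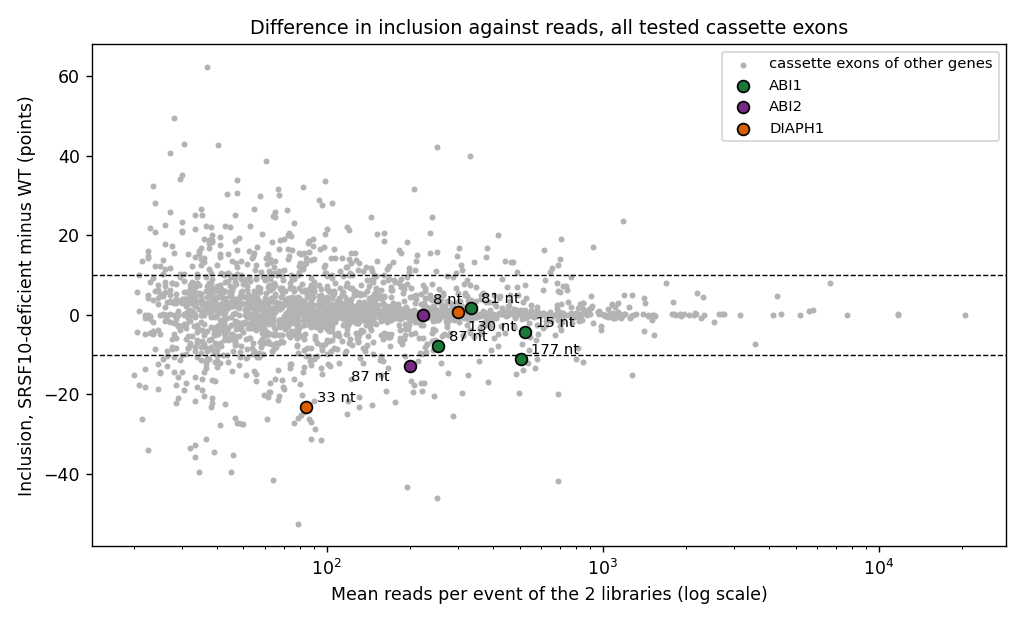
Difference in inclusion (y axis, SRSF10-deficient minus WT, percentage points) against the mean number of reads per event of both libraries (x axis, log scale) for all 2175 tested cassette exons; grey points are exons of other genes, coloured points the exons of ABI1, ABI2 and DIAPH1 with their lengths, and dashed lines mark 10 points either way. The DIAPH1 exon of 33 nt, the ABI2 exon of 87 nt and the ABI1 exon of 177 nt lie below the lower line, at -23.3, -12.8 and -11.1 points.

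The remaining ABI2 events showed 1 form almost alone in both libraries. At a pair of 3′ splice sites 6 nt apart (chromosome 7, 13109990 to 13109996), 229 of 231 reads in the SRSF10-deficient library and 301 of 308 reads in the WT library supported the form listed as inclusion, at 99.1% and 97.7% (Fisher's exact adjusted p = 0.962). At 3′ sites 5 nt and 2 nt apart, inclusion reads alone were listed, 194 of 194 and 95 of 95 in the SRSF10-deficient library and 253 of 253 and 134 of 134 in the WT library. Taken again as the share of 3 reads, these numbers allow the other form up to 1.55% and 3.16% in deficient cells and up to 1.19% and 2.24% in WT cells. Conversely, the exon of 8 nt had 0 of 194 and 0 of 253 inclusion reads, which allows up to 1.55% and 1.19%, and 5′ sites 16 nt apart had 0 of 100 and 0 of 148, which allows up to 3% and 2.03%. The exon of 8 nt and the sites 5 nt apart carry the same read numbers, 194 and 253, and may not be independent events.

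The paralogues were compared exon by exon, as far as the table allows, by testing whether a pair of exons shared 1 odds ratio of inclusion between deficient and WT cells. Pairs were formed by splicing type and not by known homology, so paired exons need not be counterparts. Of 8 pairs of an ABI1 and an ABI2 cassette exon, 4 could be tested, all with the ABI2 exon of 87 nt, and 4 were void because the ABI2 exon of 8 nt had no inclusion reads. The ABI1 exons of 87, 177 and 15 nt and the ABI2 exon of 87 nt all had lower odds of inclusion in deficient cells. Their odds ratios were 0.209 (exact 95% interval 0.0623 to 0.558) for the ABI1 exon of 87 nt, 0.319 (0.205 to 0.492) for the ABI1 exon of 177 nt, 0.167 (0.0427 to 0.476) for the ABI1 exon of 15 nt and 0.416 (0.224 to 0.745) for the ABI2 exon. The ABI1 exon of 81 nt stood at 1.13 (0.729 to 1.75).

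ABI1 and ABI2 each have 1 cassette exon of 87 nt, a length found in 36 of the 3211 listed cassette exons, in 34 genes. Both were minority forms, both were in frame by length, and both had less inclusion among the reads of deficient cells, with 2.33% against 10.2% in ABI1 and 12.1% against 24.9% in ABI2. The WT level was higher in ABI2, with intervals of 19.6 to 30.8 in ABI2 and 7.02 to 14.3 in ABI1 that did not overlap. The change of the ABI1 exon was not told apart from that of the ABI2 exon, with a ratio of odds ratios, ABI1 over ABI2, of 0.534 (95% interval 0.182 to 1.57; exact conditional adjusted p over the 4 pairs = 0.402). In percentage points the ABI1 change was the smaller, by 4.88 points (-3.57 to 13.3). From 10.2% in WT cells the ABI1 exon could not reach the -12.8 points of the ABI2 exon, so this order follows from the starting level. Which paralogue changed more was not decided on either scale. Whether the exons of equal length match in sequence was not examined, and no sequence was used here.

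Of the other pairs, the ABI1 exon of 81 nt differed from the ABI2 exon of 87 nt, with a ratio of odds ratios of 2.68 (1.34 to 5.36; exact conditional adjusted p = 0.0251). This call was lost with read numbers divided by 2 and with the inclusion reads of cassette exons halved (exact conditional adjusted p = 0.245 and 0.269). The ratio was 0.759 (0.380 to 1.52; exact conditional adjusted p = 0.471) for the ABI1 exon of 177 nt and 0.438 (0.141 to 1.37; exact conditional adjusted p = 0.383) for that of 15 nt, so neither was told apart from the ABI2 exon. This test takes no account of the spread above counting noise.

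Within ABI1, the same test was made for all 6 pairs of cassette exons, a family chosen after the values were seen. Here too it takes no account of the spread above counting noise. These pairs were not tested again with reads divided by 2 or with inclusion reads halved. The exon of 81 nt differed from that of 177 nt, with a ratio of odds ratios of 3.54 (1.97 to 6.34; exact conditional adjusted p = 0.000213). It also differed from the exon of 87 nt, at 5.02 (1.82 to 13.8; exact conditional adjusted p = 0.00142), and from that of 15 nt, with the exon of 15 nt on top, at 0.163 (0.0557 to 0.478; exact conditional adjusted p = 0.000558). By odds ratio, the exons of 15, 87 and 177 nt were not told apart from one another (exact conditional adjusted p of 0.496, 0.748 and 1), with wide intervals such as 0.211 to 3.19 for the exon of 15 nt over that of 87 nt. In percentage points, the exon of 15 nt changed less than that of 177 nt, by 6.75 points (Wald 95% interval 2.09 to 11.4). At 5.33% in WT cells the exon of 15 nt could not reach the -11.1 points of the other, so this order follows from the starting level. For the exon of 15 nt against that of 81 nt, the difference was -6.11 points (-12.2 to -0.00396). Its Wald adjusted p over the 6 pairs was 0.0748, so that pair passed by odds ratio only. The 4 exons lie within 1 transcript unit and may share sequenced fragments, so these pairs are not fully independent.

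**Figure D3:**
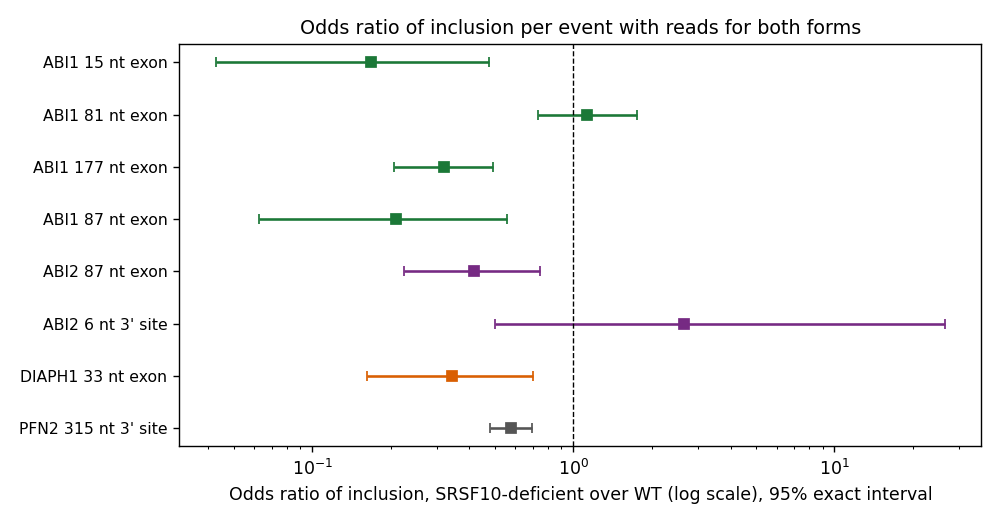
Odds ratio of inclusion (x axis, log scale, SRSF10-deficient over WT) for the 8 events with a finite ratio, with exact 95% intervals that cover counting error only; rows are coloured by gene. The intervals of 5 cassette exons lie below 1, as does that of the PFN2 3′ site for its listed form, whose direction is not defined, and those of the ABI1 exon of 81 nt (1.13) and the ABI2 3′ site (2.66) span 1.

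ABI3, the third member of the family, had a cassette exon of 177 nt, the length of the changed ABI1 exon and of 19 of the 3211 listed cassette exons. It was included in 45 of 45 reads in the SRSF10-deficient library and in 66 of 67 reads in the WT library, so skipping was nearly absent from both (Fisher's exact adjusted p = 1). A difference from the ABI1 exon was not tested.

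In PFN2, a choice between 3′ splice sites 315 nt apart (chromosome 9, 23219868 to 23220183) was the event with the most reads. The form listed as inclusion had 279 of 1086 reads in the SRSF10-deficient library and 431 of 1149 reads in the WT library. Its level was 25.7% (23.1 to 28.4) in deficient cells and 37.5% (34.7 to 40.4) in WT cells, with intervals well apart. The difference was -11.8 points (-15.6 to -7.98), with a Fisher's exact adjusted p of 1.79e-07 and an odds ratio of 0.576 (0.478 to 0.693). Of 52 alternative 3′ sites of other genes at like depth, 1 differed by as many points, which is also 1 of the 15 with a mean level of 10 to 90% (6.67%). By the rule for a change, 1.92% of those 52 sites were called, beside 4.58% of all alternative 3′ sites. The spread of alternative 3′ sites with each expected count at 5 or more was 2.18 times counting noise. With the chi-square divided by that spread, used in place of Fisher's exact test, the PFN2 site had an adjusted p of 0.00650, and it was the only changed event of the 4 genes to keep its call. The cassette exons were divided by a larger factor, 3.97, so the events did not face the same divisor. Among cassette exons the factor was 5.35 at or above the median number of reads and 2.75 below it. No such factor was taken for deeply read 3′ sites. In the authors' deposited table the adjusted p of the PFN2 site is 0.400. The table defines inclusion for exons only, so which of both sites it counts as inclusion is not stated, and the direction has no meaning beyond the listed form.

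The number of reads on these events also differed between the libraries. Over the 5 ABI1 events, the SRSF10-deficient library had 0.640 to 0.734 times the reads of the WT library, with a median of 0.693. Over the 6 ABI2 events the ratio was 0.641 to 0.767, with a median of 0.729. The median over all 3461 tested genes was 1.01, with quartiles of 0.808 and 1.26, and 13.9% and 16.8% of genes had a lower ratio than ABI1 and ABI2. DIAPH1 stood at 0.857 for its exon of 33 nt and 1.26 for that of 130 nt, and PFN2 at 0.945. The events of 1 gene share transcripts and library, so they are no replicates of a level, and no test was made. The ratios are of reads on listed events with no visible normalization, from 1 library per genotype. Fewer cells with the transcript, less RNA per cell and a difference between the libraries alone cannot be told apart.

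**Figure D4:**
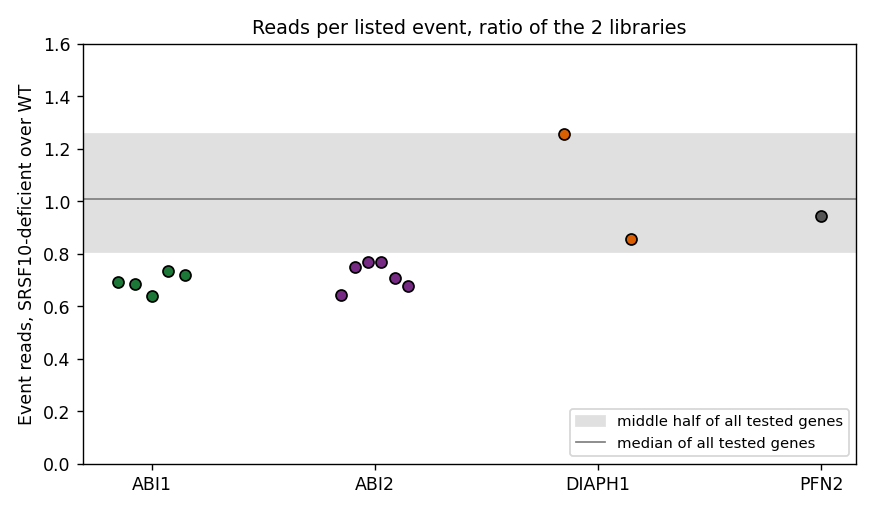
Reads per listed event, SRSF10-deficient over WT (y axis, ratio), for the events of ABI1, ABI2, DIAPH1 and PFN2 (points); the grey band and line are the quartiles (0.808 and 1.26) and the median (1.01) of the gene medians of all 3461 tested genes. All 11 events of ABI1 and ABI2 lie below the band, between 0.640 and 0.767.

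The rest of the machinery was described by a list of 102 genes of actin assembly, chosen with earlier results of these data known. Events were listed for 30 of them, and 19 had a tested event. The 4 genes above were the only changed ones (21.1% of the tested genes, beside 7.05% of all tested genes), and 0 of the other 15 tested genes had a changed event among 21 events by Fisher's exact test. At an unadjusted Fisher's exact p under 0.05 there were 2 of these 21. The share of all tested events at that threshold is not given here, so this count cannot be set against a general rate. By the authors' deposited adjusted p, 0 of the 21 events were under 0.05. The median difference of the 21 events was 0 points and the median absolute difference 1.49 points, beside 0.0488 and 2.36 points over all tested events.

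In the WAVE complex, the tested events of WASF1, WASF2, CYFIP1 and CYFIP2, the partners of the ABI proteins, differed by -0.366 to 4.39 points. A retained intron of ABI3 had 58.1% listed inclusion in the SRSF10-deficient library and 40.9% in the WT library, over 86 and 66 reads (Fisher's exact adjusted p = 0.368). INF2, a formin, differed by -5.24 and 8.84 points at its 2 events, and SPIRE1, another actin nucleator, by 8.79 points. CORO1C, a coronin, had 10.2% in the SRSF10-deficient library and 5.88% in the WT library at an event with no defined type (Fisher's exact adjusted p = 0.0949). The other tested CORO1C event differed by -5.98 points. ACTB, beta-actin, differed by less than 0.01 points at each of its 3 events.

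Exons of other genes with the most similar levels were found by the distance in percentage points between the levels of both libraries, among events of the same type with at least 50 reads in each. Nearest to the DIAPH1 exon was a 45 nt exon of NF2, the merlin gene, at 22.6% in the SRSF10-deficient and 42.3% in the WT library, followed by exons of ZNF516 and EPB41L2. Nearest to the ABI1 exon of 177 nt was a 34 nt exon of MEAF6, a histone acetyltransferase subunit, at 82.4% and 93.5%, followed by LOC426023 and NOTCH1. The ABI2 exon came closest to a 9 nt exon of the unnamed locus XLOC_016844, at 14.2% and 22.1%, then to exons of MLLT10 and CCDC6. The PFN2 site was nearest to LOC100858871, at 20.8% and 35.7%, then to OGT, at 19.6% and 41.3%, and to PIAS2. PIAS2 stood at 29.6% and 31.1%, so it was near in level but did not share the width of the change. For these 3′ sites the levels are those of the listed form, whose direction is not defined. The likeness rests on 2 libraries and says nothing of common control.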

How the data were processed

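Per the submitters' processing notes, TopHat2 2.0.6 and Cufflinks were used with galGal4. How the authors called events and tested them to reach the adjusted p-value of the deposited table is not given in the sources. The deposited table gives raw exclusion and inclusion read counts per event and library, per the file headers, with no visible normalization. Of 10652 rows, 276 with more than 2 numbers per library and 57 repeated rows were left out; none of them was a row of the 4 genes. All 14 rows of the 4 genes had at least 20 reads in each library. Each of 6089 events was tested by Fisher's exact test (two-sided), adjusted after Benjamini-Hochberg. Pairs of odds ratios were compared by Zelen's exact conditional test, and their ratios carry Wald intervals with 0.5 added to each count. Spread above counting noise is the median chi-square of an event type over the chi-square median, taken where each expected count was 5 or more. It was taken from the comparison of SRSF10-deficient with WT itself and holds any effect of genotype too. Cassette exon length is end minus start plus 1, and the distance between sites is end minus start. Names were matched with the gene table of GRCg7b, used for names only: 3 of 4 matched by symbol and DIAPH1 by synonym. Intervals cover counting error only, and beside a count of 0 stands the share that 3 reads would make. The genes, lists, tests and alternatives were chosen with earlier results of these data known. All events of the 4 genes are described, and list genes with a changed event and the 3 nearest events were to be named; WASF1, WASF2, CYFIP1, CYFIP2, ABI3, DIAPH3, INF2, SPIRE1, CORO1C and ACTB were named after their values were seen. The work used NumPy 2.4.6, SciPy 1.17.1, matplotlib 3.10.9 and pandas 2.3.3 under Python 3.11.15.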

Additional observations from a re-analysis of the deposited data

How the results depend on the processing

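With 1 library per genotype, no replicate could be left out. No paired analysis was possible because each genotype has 1 library. The DIAPH1 exon, the ABI2 exon, the ABI1 exon of 177 nt and the PFN2 site had Fisher's exact or spread-divided adjusted p of 0.0306 to 1, 0.0313 to 1, 2.32e-06 to 0.597 and 1.46e-07 to 0.00665 over the alternatives, authors' values aside. The value of 0.00665 came with the spread of deeper cassette exons, which left the PFN2 site at its own factor of 2.18. At a minimum of 20 points, the ABI1 exon of 177 nt, the ABI2 exon and PFN2 lost their calls at unaltered Fisher's exact adjusted p of 2.78e-06, 0.0364 and 1.79e-07, and with no minimum the ABI1 exons of 15 and 87 nt gained one (Fisher's exact adjusted p = 0.00203 and 0.00816). At an adjusted p of 0.01 the ABI2 and DIAPH1 exons were lost (Fisher's exact, 0.0364 and 0.0357). Reads divided by 2 gave the ABI2 exon 0.743, the DIAPH1 exon 0.663 and the ABI1 exon of 81 nt against the ABI2 exon 0.245 (exact tests), and halved cassette inclusion reads gave 0.374, 0.225 and 0.269. That halving changed the differences to -7.26 points for the ABI2 exon, -17.0 for DIAPH1 and -17.9 for the ABI1 exon of 177 nt. In points the ABI1 exon then had a larger change than the ABI2 exon, the reverse of the order as counted, but this was not tested. By odds ratio with halved inclusion reads, these ABI1 and ABI2 exons were not told apart (exact conditional adjusted p = 0.490). The authors' deposited table gives 0.116 for the ABI1 exon of 177 nt, 0.0560 for ABI2 and 0.400 for PFN2. Division by the spread of the event type gave 0.280, 1 and 1 for the ABI1 exon of 177 nt, ABI2 and DIAPH1, and by that of the deeper cassette exons (5.35, chosen after seeing the data) 0.597, 1 and 1.

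Changed events over all genes numbered 286, and 156 at 20 points, 108 with reads divided by 2, 142 by the authors' adjusted p, 55 with division by spread and 48 with that of the deeper exons. At an adjusted p of 0.01 they numbered 215, and with halved inclusion reads 233. Changed events of the 4 genes, and changed genes of the actin list, numbered 4 each, and 1 each at 20 points, by the authors' adjusted p and under both divisions by spread. Under both divisions this was the PFN2 site, whose factor the deeper cassette exons did not alter. These events and genes numbered 2 each at an adjusted p of 0.01, with reads divided by 2 and with halved inclusion reads. As differences in points of the reads as counted, the ABI1 exons of 15, 177 and 87 nt changed less than the ABI2 exon, by 8.40, 1.65 and 4.88 points (Wald adjusted p over the 4 pairs = 0.0652, 0.705 and 0.343, large-sample values), where the odds ratios had the opposite order. For the exons of 15 and 87 nt, at 5.33% and 10.2% in WT cells, the order in points follows from levels too low to lose as many points. With inclusion reads halved, the ABI1 exon of 177 nt had a larger change than the ABI2 exon in points as well, at -17.9 against -7.26, which was not tested. The DIAPH1 exon rests on 78 and 91 reads.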
